A study of Mus musculus with 6 samples.

Results

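Lysosomal glycosidases are the acid hydrolases that cut sugars from glycolipids, glycoproteins, glycogen and glycosaminoglycans inside the lysosome. The genes described here were *Hexa*, *Gla*, *Glb1*, *Gaa*, *Naglu*, *Gusb* and *Man2b1*, which are 7 of the 53657 gene names counted. They were picked by name, and the family was taken up with results of this contrast already known. The differences of the 7 genes between the groups are therefore given as a description. Counts of calls stand beside those of all genes, and no p is given for a single one of the 7.

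The glycosidases are made in the endoplasmic reticulum, receive a mannose 6-phosphate tag in the Golgi and are carried by tag receptors to the lysosome, where a proton pump keeps the pH acid. Loss of any one of them in humans leads to a lysosomal storage disease, because its substrate piles up. The transcription factor TFEB and its relatives are known to drive many lysosomal genes together through a short palindromic DNA element. In the testis several of these enzymes are also packed into the acrosome of the sperm head.

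RNA was sequenced from undifferentiated spermatogonia (A_undiff) of 6 adult mice, each sorted as its own sample 3 months after tamoxifen. The 3 WT mice carried *Gfra1-creERT2* and a tdTomato reporter, and the 3 MUT mice carried in addition 1 copy of *FR-Hras* G12V, an allele in which Cre removes a floxed wild-type *Hras* and puts the mutated gene under the endogenous promoter. Both groups received tamoxifen, WT were littermates without the *FR-Hras* allele, and all were of mixed background. Sorted cells were bright for the surface protein MCAM and positive for tdTomato. Cre was driven by the *Gfra1* promoter, which is active in A_undiff and not in the somatic cells of the testis. The reporter and *Hras* recombine separately, and the study checked the mutated allele in these libraries by variant calling, which was not analysed here.

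The samples held between 22729292 and 23550433 counted fragments, so that 3 counts corresponded to between 0.127 and 0.132 CPM (counts scaled to library size, here after TMM normalization). Fragments of mitochondrial genes made up between 2.05% and 2.38% of each sample. *Hras* was at 60.6 ± 4.19 CPM in WT and 66.6 ± 4.97 CPM in MUT (SD, n = 3 each), and its log2 fold change was 0.14 ± 0.083 (standard error; edgeR adjusted p = 0.998). Counts per gene do not separate the alleles. All 12 markers of undifferentiated spermatogonia lay above the 3-count floor. Their summed level was between 2349 and 3002 CPM in WT and between 2589 and 3041 CPM in MUT (exact two-sided permutation test, p = 0.9, where 0.1 is the smallest value that 3 against 3 samples allow).

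The promoters of all 7 genes were taken from RefSeq, as windows of 300 bases from 250 before to 50 after the start of the gene. They were searched on both strands for CACGTG (an E-box), for TCACGTGA (the core of the CLEAR element) and for the full CLEAR palindrome, which adds a G before and a C after that core. The longer motifs contain the shorter, so their matches overlap. CACGTG stood in 4 of the 7 promoters, and in 7.15% of all 32851 promoters of the same length. The windows are shown because they hold the letters at the centre of the element that TFEB recognises. Each is given 5′ to 3′ on the strand of its gene in GRCm38.p6, with CACGTG in capitals.
Glb1, chr9:114401008-114401057, plus strand: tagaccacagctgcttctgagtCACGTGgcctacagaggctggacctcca
Naglu, chr11:101069999-101070048, plus strand: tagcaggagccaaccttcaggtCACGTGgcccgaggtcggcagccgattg
Gaa, chr11:119267801-119267850, plus strand: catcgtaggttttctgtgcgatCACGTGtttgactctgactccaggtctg
Gla, chrX:134601205-134601254, minus strand: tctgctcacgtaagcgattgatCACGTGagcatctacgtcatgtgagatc
Gla, chrX:134601172-134601221, minus strand: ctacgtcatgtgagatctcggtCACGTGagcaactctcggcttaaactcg
Counted from the RefSeq start of the gene, the first base of the motif lay at -48 in *Glb1*, -73 in *Naglu*, -140 in *Gaa*, and -227 and -194 in *Gla*. The outermost starts of the count files, whose gene coordinates are given below, differ from those of RefSeq. Counted from them the same bases lay at -46 in *Glb1*, -64 in *Gaa* and -107 and -74 in *Gla*, and in *Naglu* inside the gene, at base 10. Both sites of *Gla* were also TCACGTGA, which 0.974% of all promoters held, and none of the 7 promoters held the full palindrome, which 0.326% held. The windows of *Hexa*, *Gusb* and *Man2b1* had no CACGTG. A match of letters is a description and not a site of binding.

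All 7 glycosidases were transcribed in every sample, with at least 195 counts each, and they spanned a wide range of levels. Levels of different genes were compared as CPM per kilobase of exon, using the exon length that the count files give. The mean over the 6 samples was 56.0 for *Gaa*, 52.3 for *Hexa*, 18.4 for *Man2b1*, 8.74 for *Glb1*, 7.67 for *Gusb*, 4.82 for *Gla* and 3.60 for *Naglu*. Glycogen and hexosaminidase alpha subunit genes were thus at the top, and the genes for heparan sulphate and globoside digestion at the bottom.

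Neighbours in this order were compared within samples by an exact two-sided sign-flip permutation test over the 6 samples. The p-values of the 6 pairs were adjusted as for 7 comparisons, the number planned. The smallest p this test can give is 0.03125. *Hexa* was 2.83-fold above *Man2b1*, *Man2b1* 2.11-fold above *Glb1*, *Gusb* 1.59-fold above *Gla* and *Gla* 1.35-fold above *Naglu*, each in 6 of 6 samples and without overlap of the ranges (adjusted p = 0.0547 for each, exact test, the smallest adjusted value here and not under 0.05). The steps from *Gaa* to *Hexa* (adjusted p = 0.328, exact test) and from *Glb1* to *Gusb* (adjusted p = 0.0875, exact test) had overlapping ranges. The order between the genes of these pairs was therefore not resolved by the spread among samples. With the length of the longest coding transcript, *Gusb* stood above *Glb1*, at 13.0 CPM per kilobase, and *Man2b1* rose to 38.7. That length brought *Hexa* from 2.83-fold to 1.35-fold above *Man2b1*, and raised the steps from *Man2b1* to *Glb1* to 3.53-fold and from *Gusb* to *Gla* to 2.62-fold. With bases shared between genes removed from the length, *Hexa* stood above *Gaa* at 59.9 CPM per kilobase.

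**Figure D1:**
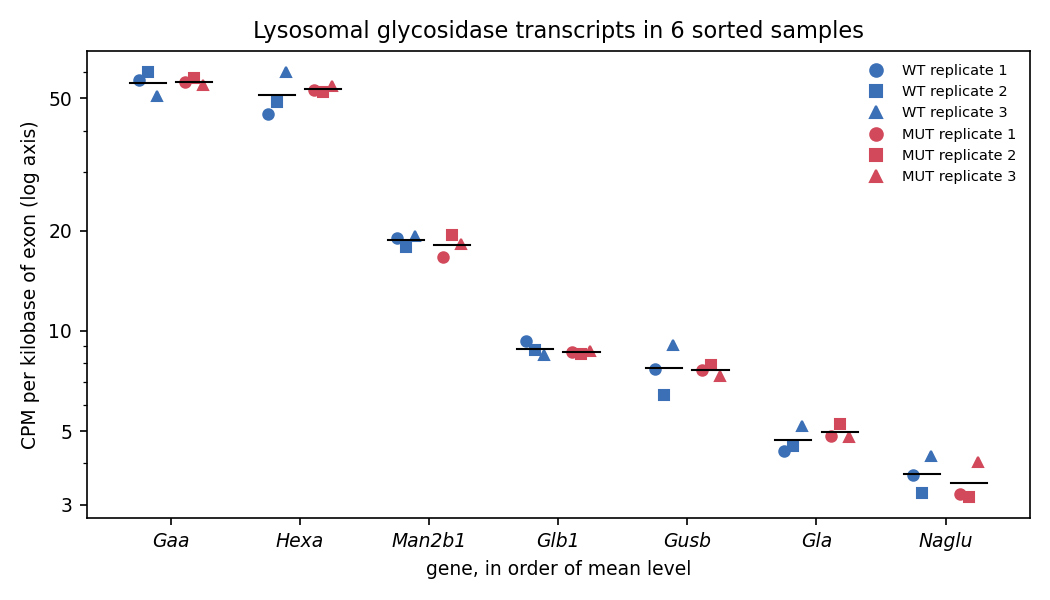
CPM per kilobase of exon on a log axis for each of the 7 genes, ordered by mean level, with 1 point per sample (WT blue, MUT red, replicate by shape) and a black line at each group mean. The WT and MUT points overlap for every gene, and the means fall from 56.0 for *Gaa* to 3.60 for *Naglu*.

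*Hexa* encodes the alpha subunit of beta-hexosaminidase, which removes terminal N-acetylhexosamines. The enzyme that contains it degrades the GM2 ganglioside, and its loss causes Tay-Sachs disease. *Hexa* maps to chromosome 9, plus strand, between 59539540 and 59565109 with 14 exons in GRCm38. Its level was 89.5, 97.4 and 119.9 CPM in WT and 106, 104 and 109 CPM in MUT. The MUT samples fell inside the range of WT, and the spread of WT was the larger. The means were 102 ± 15.7 CPM in WT and 106 ± 2.51 CPM in MUT (SD, n = 3 each), with a log2 fold change of 0.06 (standard error 0.104).

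The counting disregarded strand and left out fragments that overlapped several genes, so a gene that shares exon bases with another is undercounted to that extent. *Hexa* shares 255 bases (12.8%) with *Tmem202*, on the opposite strand, which had between 9 and 59 counts.

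*Gla* and *Glb1* encode galactosidases. *Gla* makes alpha-galactosidase A, which removes galactose from globosides and is lost in Fabry disease, and maps to chromosome X, minus strand, between 134588149 and 134601125. It was at 14.3, 14.7 and 16.9 CPM in WT and 15.8, 17.1 and 15.6 CPM in MUT. The groups overlapped, with means of 15.3 ± 1.42 and 16.2 ± 0.812 CPM (SD, n = 3 each) and a log2 fold change of 0.08 (standard error 0.113).

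*Glb1* makes beta-galactosidase, which starts the breakdown of the GM1 ganglioside upstream of hexosaminidase and is also the source of senescence-associated beta-galactosidase staining. It maps to chromosome 9, plus strand, between 114401076 and 114474898. Its level was 28.1, 26.3 and 25.5 CPM in WT and 26.0, 25.7 and 26.2 CPM in MUT. It varied least of the 7 genes, with a coefficient of variation over the 6 samples of 3.58%, against between 5.50% and 12.3% for the other 6. The log2 fold change was -0.04 (standard error 0.083). *Glb1* shares 165 bases (5.49%) with *Tmppe*, on the same strand, which had between 221 and 430 counts.

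*Gaa* and *Man2b1* were the members with the most counts. *Gaa* encodes the acid alpha-glucosidase that digests glycogen and is lost in Pompe disease, and maps to chromosome 11, plus strand, between 119267887 and 119285454. It was at 272, 287 and 243 CPM in WT and 269, 276 and 262 CPM in MUT. All MUT samples fell within the WT range, and the log2 fold change was 0.01 (standard error 0.080). *Gaa* alone made up between 39.7% and 47.3% of the CPM summed over the 7 genes.

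*Man2b1* encodes the alpha-mannosidase that trims N-glycans taken up from glycoproteins, and maps to chromosome 8, plus strand, between 85083270 and 85098282. Its level was 153, 144 and 155 CPM in WT and 134, 156 and 147 CPM in MUT. One MUT sample lay below and one above all WT samples, and the log2 fold change was -0.05 (standard error 0.076).

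*Naglu* and *Gusb* act on glycosaminoglycans. *Naglu* makes the alpha-N-acetylglucosaminidase of heparan sulphate breakdown, which is lost in Sanfilippo syndrome type B, and maps to chromosome 11, plus strand, between 101070012 and 101077672. It had the fewest counts of the family and was at 9.77, 8.66 and 11.2 CPM in WT and 8.60, 8.44 and 10.7 CPM in MUT. In both groups replicate 3 was the highest, the groups overlapped, and the log2 fold change was -0.09 (standard error 0.157).

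*Gusb* makes beta-glucuronidase, which is lost in Sly syndrome, and maps to chromosome 5, minus strand, between 129989011 and 130003049. Its level was 35.0, 29.2 and 41.1 CPM in WT and 34.8, 35.9 and 33.3 CPM in MUT. The MUT samples lay inside the range of WT, and the log2 fold change was -0.02 (standard error 0.122).

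The CPM summed over the 7 genes was between 601 and 613 in WT and between 593 and 623 in MUT, and the groups overlapped. The log2 fold changes of the 7 lay between -0.09 and 0.08, and the widest of their 95% confidence intervals, that of *Naglu*, ran from -0.45 to 0.27. In bulk samples, a change in the number of cells that make a transcript and in the transcript per cell cannot be told apart. With 3 samples per group, differences within these intervals are not excluded. The intervals are not limits of detection, and larger differences can also go uncalled. The log2 fold change was below 0 in 4 of the 7 genes, and in 48.2% of the 19656 genes tested.

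**Figure D2:**
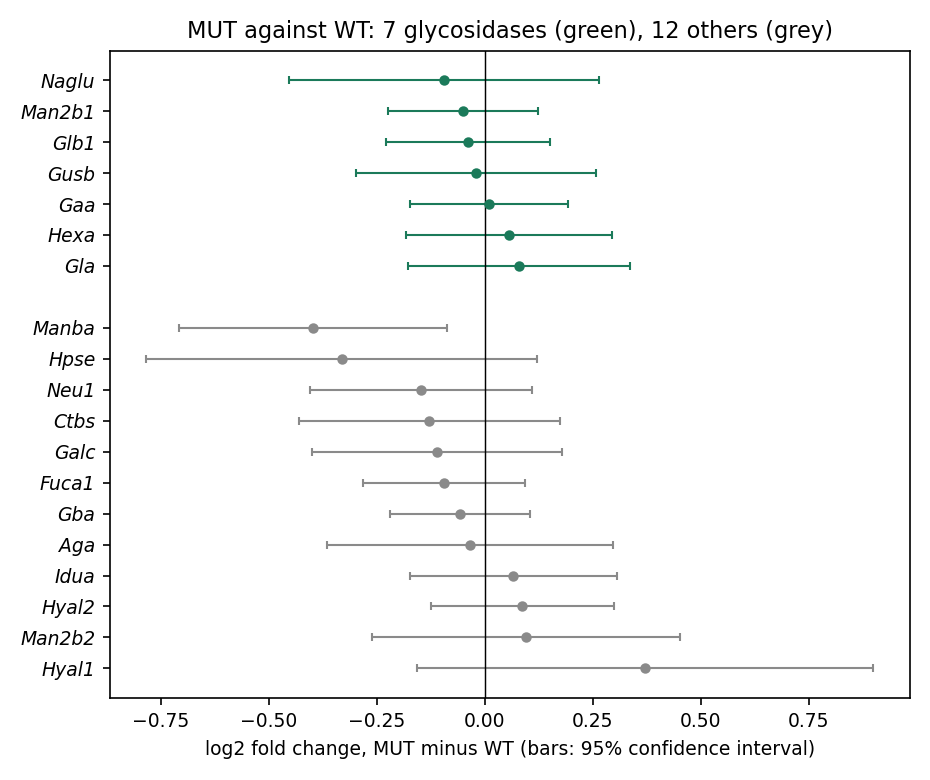
Log2 fold change of MUT over WT with its 95% confidence interval from edgeR, for the 7 genes (green) and 12 other lysosomal glycosidases (grey). The green points lie between -0.09 and 0.08, and the grey ones between -0.40 (*Manba*) and 0.37 (*Hyal1*).

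With calls made at an FDR (false discovery rate) threshold of 0.1, edgeR called none of the 7 genes, and 0 of the 7 had an unadjusted p under 0.05. Over all genes it called 2, both lower in MUT (0.0102% of 19656), and 547 had an unadjusted p under 0.05 (2.78%). DESeq2 called 0 of the 7 beside 0.0241% of all genes. With the replicate number as a block, edgeR called 0 beside 0.0661% of all genes and DESeq2 called 0 beside 0.323%. The groups overlapped in all 7 genes, while MUT lay wholly below WT in 2.99% of all genes tested and wholly above in 4.71%. The family was taken up with this contrast known, so nothing is read from these counts.

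Across the 6 samples the correlations between glycosidases went in both directions. Among the 21 pairs of members, Pearson's r of log2 CPM was positive in 13, with a median of 0.074 and a range from -0.86 (*Hexa* with *Glb1*) to 0.81 (*Hexa* with *Gla*). These values describe 6 shared libraries and carry no p, and whether the genes vary together was not tested.

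Because macrophages are rich in lysosomes and spermatids store glycosidases in the acrosome, markers of cells other than A_undiff were summed in the same samples. The 12 macrophage markers, of which 11 had a log2 fold change below 0, summed to 1172, 1053 and 1706 CPM in WT and 921, 1099 and 1172 CPM in MUT (exact two-sided permutation test, p = 0.5). *Lyz2* was the highest of them, at 483 CPM in WT replicate 3 and between 235 and 282 CPM in the other samples. The log2 ratio of the sums was -0.30, and -0.065 without WT replicate 3.

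The 6 spermatid markers, all with a log2 fold change below 0 and led by *Prm2*, summed to 1163, 868 and 1473 CPM in WT and 600, 628 and 1145 CPM in MUT (exact two-sided permutation test, p = 0.2). Of the 8 markers of B and plasma cells, *Igkc* was the highest in the mean over samples, and *Ighm* in each MUT sample. The 8 summed to between 77.4 and 327 CPM in WT and between 27.2 and 90.0 CPM in MUT (exact permutation test, p = 0.2). Both sums were lower in MUT in 3 of 3 pairs of the same replicate number (p = 0.25 by an exact permutation of the signs within pairs, which 3 pairs cannot go below). edgeR and DESeq2 called no marker of any list. In edgeR 8 of the 70 tested had an unadjusted p under 0.05, beside 2.78% of all genes tested. In DESeq2 this held for 7 of 72, beside 438 of 37271 genes. With the block it held for 21 of 70 in edgeR, beside 1297 of 19656 genes. In DESeq2 with the block it held for 14 markers, beside 611 over all genes. An adjusted p was given there for 66 markers and 17045 genes, to which these unadjusted counts were not limited. With the replicate block, edgeR called *Jchain* and *Tnp1*, and DESeq2 called *Jchain*, *Ighm*, *Prm1*, *Tnp1* and *Tnp2*, all lower in MUT and from the lists of B and plasma cells and of spermatids. No marker was under the 3-count floor in all samples, and the part of these cells in the levels of the glycosidases was not tested.

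Sums of the other lists overlapped between the groups (exact two-sided permutation tests, p from 0.3 to 1). They were between 395 and 552 CPM in WT and between 456 and 467 CPM in MUT for spermatocytes (*Sycp1* highest), and between 19.98 and 36.3 CPM in WT and 16.7 and 38.7 CPM in MUT for the acrosome (*Zpbp* highest). For Sertoli cells (*Clu* highest) they ranged from 65.1 to 151 CPM in WT and from 95.7 to 130 CPM in MUT, and for endothelial cells (*Cdh5* highest) from 45.1 to 59.2 CPM in WT and from 44.5 to 54.6 CPM in MUT. Peritubular myoid markers (*Des* highest in the mean over samples) stayed between 7.90 and 12.8 CPM in all samples. Their sum was higher in MUT in 3 of 3 pairs of the same replicate number (p = 0.25, exact permutation of the signs within pairs). Leydig cell markers reached 67.2 CPM in MUT replicate 3 and lay between 12.9 and 21.0 CPM in the other samples. *Star* was the highest of them in the mean over samples, but not in MUT replicate 3, where it was at 16.9 CPM.

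To place the 7 genes in their pathway, 98 other genes of the lysosome, of ganglioside synthesis and of related enzymes elsewhere in the cell were read from the same fit. All 98 were tested, and none passed the FDR of 0.1 in edgeR, in DESeq2 or in either fit with the block. An unadjusted p under 0.05 from edgeR was found for 4, all lower in MUT, which 1.44% of all genes tested also showed. Their median log2 fold change was -0.03, against 0.01 for all genes tested, and 60 of the 98 were below 0. Without WT replicate 3, which had the highest macrophage sum, 46 of the 98 were below 0 and the median was 0.0053. MUT lay wholly below WT in 5 (2.99% of all genes tested) and wholly above in 3 (4.71%).

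The 12 other lysosomal glycosidases described had a median log2 fold change of -0.08, with 8 below 0, and of -0.0095 with 6 below 0 without WT replicate 3. *Manba*, the beta-mannosidase, had the lowest value at -0.40 (13.2 ± 0.739 CPM in WT and 9.996 ± 1.30 CPM in MUT, SD, n = 3, adjusted p = 0.998 from edgeR). *Hyal1*, a hyaluronidase, had the highest at 0.37 (2.05 ± 0.137 and 2.66 ± 0.691 CPM), and *Hyal2* the highest level per length at 27.2 CPM per kilobase. Neither *Manba* nor *Hyal1* passed the threshold.

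None of the 4 activators and partners of glycosidases was called, and *Psap* had the highest level of the 98 genes per kilobase. *Psap*, the precursor of the saposins, was at 758 ± 108 CPM in WT and 725 ± 62.8 CPM in MUT. *Gm2a*, the activator that lifts the GM2 ganglioside to hexosaminidase, was at 47.1 ± 13.9 and 41.7 ± 3.49 CPM with a log2 fold change of -0.18. *Ctsa*, which protects beta-galactosidase, and *Hgsnat*, which acts with *Naglu* on heparan sulphate, had log2 fold changes of -0.01 and -0.05.

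The proteases and lipid enzymes were also read without WT replicate 3. The list medians were not taken with any other sample left out. Of 13 proteases 12 had a negative log2 fold change (median -0.14), beside 48.2% of all genes tested and 11 of the 12 macrophage markers (median -0.30). Without WT replicate 3, 6 of the 13 were negative and the median was 0.0021. *Ctss*, cathepsin S, was at 154 CPM in that sample and between 70.4 and 100.05 CPM in the others. The part of macrophages in these values was not tested. With all samples the proteases ran from *Ctsh* at -0.47 (25.0 ± 5.18 CPM in WT and 17.98 ± 0.799 CPM in MUT) to *Ctsf* at 0.0022. *Ctsd*, cathepsin D, had the highest level of these at 118 CPM per kilobase. All 6 lipid enzymes were negative (median -0.13, and 5 of 6 with a median of -0.016 without WT replicate 3), from *Ppt1*, a palmitoyl thioesterase, at -0.21 to *Ppt2* at -0.05, with *Asah1*, acid ceramidase, the highest in level at 20.03 CPM per kilobase. No gene of these lists passed the FDR in edgeR (adjusted p = 0.998 for *Ctsh*).

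The 6 genes of the sulfatase list had a median log2 fold change of -0.0081, from *Arsa* at -0.10 to *Galns* at 0.12, and *Sumf1*, which activates sulfatases, was the highest in level. Among 13 membrane proteins the median was -0.0042, with *Scarb2*, the receptor that carries glucocerebrosidase, lowest at -0.32 (adjusted p = 0.998 from edgeR) and *Npc1*, a cholesterol transporter, highest at 0.09. *Lamp1* was the most abundant of them at 193 CPM per kilobase.

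All 6 genes of mannose 6-phosphate sorting were above 0, from *Gnptg* at 0.02 to *Nagpa* at 0.11, both of which serve to make the tag, and none was called. Without WT replicate 3, 3 of the 6 were below 0. *M6pr*, a receptor of the tag, was their highest at 40.8 CPM per kilobase. The 16 subunits and accessory proteins of the proton pump ranged from *Atp6ap2* at -0.11 to *Atp6v0a1* at 0.08, with *Atp6v1f* the highest in level. Among 6 regulators the values ran from *Flcn*, which restrains TFEB and was the highest in level, at -0.07 to *Tfec* at 0.11, with *Tfeb* itself at -0.06.

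**Figure D3:**
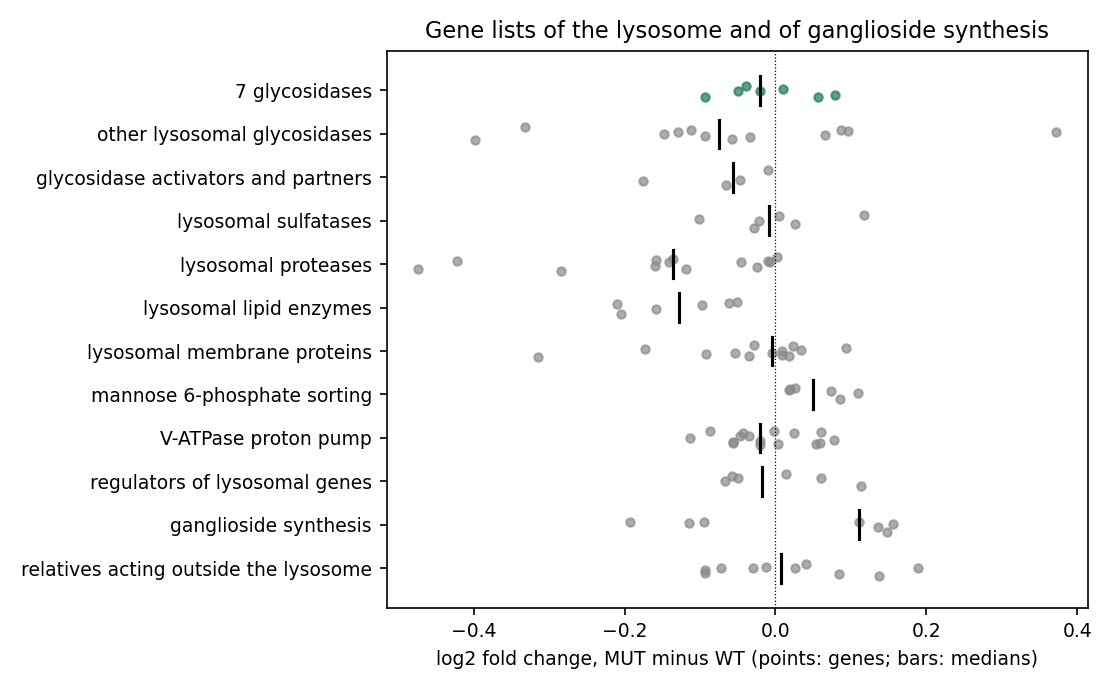
Log2 fold change of MUT over WT for every gene of each list (1 point per gene, black bar at the list's median, vertical jitter for legibility only). The points lie between -0.47 (*Ctsh*) and 0.37 (*Hyal1*), and no list holds a gene past the FDR of 0.1 in edgeR.

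The substrate side was read from 7 genes of ganglioside synthesis, whose median log2 fold change was 0.11, and 0.05 without WT replicate 3. *St3gal2*, a sialyltransferase, was highest at 0.16 (42.5 ± 5.38 CPM in WT and 47.4 ± 0.782 CPM in MUT, SD, n = 3), and *B3galt4*, which makes the GM1 ganglioside, lowest at -0.19. *St3gal5*, which makes the GM3 ganglioside from which the others derive, was the most abundant at 18.04 CPM per kilobase. None passed the FDR in edgeR (adjusted p = 0.998 for *St3gal2*).

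Relatives that act outside the lysosome served as a further comparison, since they cleave like sugars in other compartments. The 10 genes had log2 fold changes from -0.09 (*Glb1l2*) to 0.19 (*Man2a2*, a Golgi mannosidase), with 5 on each side of 0, and none was called. *Ganab*, the glucosidase of the endoplasmic reticulum, was the highest at 85.1 CPM per kilobase, against 56.0 for *Gaa*, the highest of the 7 lysosomal genes. *Mgea5* and *Hexdc*, hexosaminidases of the cytosol and nucleus, had log2 fold changes of 0.03 and 0.14.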

How the data were processed

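RNA of 3 WT and 3 MUT mice was measured. The authors deposited 1 table per sample of raw fragment counts per gene name, made with featureCounts 1.6.2 on GENCODE vM17 (GRCm38.p6) with tdTomato added, after alignment with STAR (version not given in the sources used here). Libraries were stranded, the counting was not, and multi-mapping and ambiguous fragments were left out, so genes with overlapping partners are undercounted. Samples were grouped by the labels.

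In R 4.3.3, edgeR 4.0.16 scaled the counts by TMM, kept 19656 genes with filterByExpr and ran its quasi-likelihood test of genotype (no other term), Benjamini-Hochberg adjustment and an FDR of 0.1. Standard errors and 95% confidence intervals came from this fit. DESeq2 1.42.0, limma 3.58.1 (voom), no filter, at least 10 counts in every sample, DESeq2 size factors, an FDR of 0.05, the replicate block and each sample left out were alternatives. Exact tests used SciPy 1.17.1, and figures matplotlib 3.10.9. Correlations were taken on log2 CPM (prior count 2). Scripts were tested on simulated counts.

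Samples with the same number in the labels deviated together from their group means (r = 0.30, 0.16 and 0.40 over 10583 genes of at least 10 CPM), so the numbers were taken to pair them. Samples with different numbers gave r between -0.42 and 0.33, the highest for WT replicate 2 with MUT replicate 1, which was above 2 of the 3 same-number values. The controls were littermates, but the sources used here do not say which mice were paired. The counts come from separate mice, and intervals from edgeR include the variation between them.

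The genes and all lists were chosen with earlier results of these data known. Named were the 7 genes, in each other list the genes past the FDR, the highest and lowest log2 fold change and the highest level per length, all activators and relatives by value or range, the top gene of each cell list, and *Hras*. *Tfeb*, *Tmem202*, *Tmppe*, *Mgea5* and *Hexdc* were also named. The members' proteins were not analysed here, and results for some genes of the family and lists are not reported here. Exon numbers and coding lengths came from GENCODE vM21 on the same build.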

Additional observations from a re-analysis of the deposited data

How the results depend on the processing

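Over all genes, the count of 2 calls became 9 with DESeq2, 4 with limma voom, 5 without a filter, 0 once every sample needed at least 10 counts (479 had an unadjusted p under 0.05), 1 when the FDR was 0.05, 13 with the replicate block in edgeR and 55 with the replicate block in DESeq2. Leaving out a sample gave between 0 (without MUT replicate 2, with 292 at an unadjusted p under 0.05) and 6 (without MUT replicate 3), with 1 without MUT replicate 1 and 5 without WT replicate 3. The count among the 7 glycosidases was 0 in every alternative. That among the 98 other genes of the lists was 0 in edgeR, in DESeq2 and in both fits with the block, which changed no call of these genes. With WT replicate 3 left out, 1 of the 7 glycosidases had an unadjusted p under 0.05 in edgeR, beside 729 of 20086 genes tested.

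Of 91 values of the 7 genes under alternatives, 83 kept direction and side of the threshold and 8 reversed. The reversed values were 3 of *Gaa*, 2 of *Gusb* and 1 each of *Hexa*, *Man2b1* and *Naglu*. *Gaa* was at -0.0023 with at least 10 counts in every sample. With a sample left out, ranges that crossed 0 were -0.039 to 0.19 for *Hexa*, -0.054 to 0.052 for *Gaa*, -0.21 to 0.0054 for *Naglu*, -0.15 to 0.11 for *Gusb* and -0.11 to 0.00085 for *Man2b1*. The order of levels per kilobase kept all 6 pairs of neighbours without TMM, in TPM and without any one sample. Both other definitions of length, chosen after seeing the data, kept 5.

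The log2 ratio of the B and plasma cell sum, -2.01, was -0.92 as a geometric mean and -0.64 as the list's median log2 fold change, the latter chosen after seeing the data. That of the Leydig cell sum, 0.77, was between -0.47 (without MUT replicate 3) and 1.15. The mean log2 ratio within replicate pairs, also chosen after seeing the data, moved no cell list by more than the spread between samples. The list medians without WT replicate 3 and the marker calls with the block were likewise chosen after seeing the data. The causes of these differences were not tested. With 3 samples per group, exact tests between the groups cannot pass 0.05.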
